A study of Mus musculus with 6 samples.

Results

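The mouse Hox genes were examined for chromatin accessibility in leukemia cells by ATAC-seq, a method that marks open DNA by letting a transposase cut it and attach adapters. A peak is a stretch of DNA with a local excess of insertions, and its sequenced ends are called tags. Each peak had been assigned by the peak-calling software to the gene with the nearest transcription start site (TSS). The set described here holds every peak whose nearest gene is a member of Hoxa, Hoxb, Hoxc or Hoxd and whose distance to that gene's TSS is at most 100000 bp. This gave 208 of 175929 peaks, the farthest at 52976 bp, and was decided by gene name and distance with no use of tag numbers. Of 39 Hox genes, 34 had a peak. Hoxa2, Hoxa4, Hoxa6, Hoxb2 and Hoxd4 had none (0). Hoxc contributed 117 peaks, Hoxb 39, Hoxd 27 and Hoxa 25. Within 3000 bp of the TSS lay 132 peaks (promoter-proximal), and 76 lay farther away (distal), of which 58 belonged to Hoxc.

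Hox genes encode homeodomain transcription factors that give cells their position along the body axis. They stand in clusters on separate chromosomes, all transcribed in the same direction within a cluster, with low-numbered (anterior) genes at the 3′ end and high-numbered (posterior) genes at the 5′ end, and Polycomb complexes keep the unused parts closed while MLL complexes keep the used parts open. In blood, Hoxa9, Hoxa10 and several Hoxb genes are active in stem and progenitor cells and are shut off as cells mature, and HOXA9 together with its cofactor MEIS1 drives many myeloid leukemias. Leukemias with the AML1-ETO fusion are, as a class, known for low HOXA expression.

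The cells were AML1-ETO9a (AE9a) leukemia cells. AE9a, a shortened AML1-ETO fusion, is leukemogenic in mice, where it gives rise to a myeloid leukemia. Every sample carried Usp18+/f UBCER-Cre, that is, 1 floxed allele of Usp18, the gene of a protease that removes ISG15 and restrains interferon signaling, together with a Cre that tamoxifen activates and that is driven by the ubiquitin C promoter in all donor-derived cells. Fetal liver cells had been transduced with a retrovirus that also expresses GFP, and the resulting leukemia was transplanted into secondary recipients that were irradiated below a lethal dose and so kept their own blood cells. After the recipients became sick they received oil (Usp18+/f, libraries 1, 2 and 4) or tamoxifen (Usp18+/D, libraries 1, 3 and 4), and the GFP+Lin-c-Kit+ fraction of the spleen was collected by sorting on day 3 from the initial injection. The comparison asks how chromatin differed after loss of 1 Usp18 allele in established leukemia. Tamoxifen without Cre was not analysed here, so tamoxifen itself and loss of the allele cannot be told apart. The 15 peaks nearest to Usp18 do not check the deletion, because the deleted stretch is not given in the sources used here, and 0 of them passed an adjusted or an unadjusted p of 0.05 in DESeq2.

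The libraries held 57.4 to 74.7 M tags in total (M for mega) and 17.5 to 21.1 M in peaks, and the median peak held 45 to 57 tags, so that counting error was a large part of the spread at a typical Hox peak. The oil libraries differed from each other by little more than counting error (chi-square per degree of freedom 1.03 to 1.21), whereas pairs with tamoxifen library 4 reached 2.65 and 2.67 and the remaining tamoxifen pair 1.48. Tamoxifen library 4 thus stood apart, and values without it are given where they change a result. The labels do not say whether each library came from its own mouse. The study's methods speak of separate mice for a set of cells paired with this assay, and its reporting form gives fewer replicates than there are libraries here. SD, n and p-values are therefore over libraries, and may measure technical spread only. Markers were read at their start sites (peak within 1000 bp). Kit, the receptor used in the sort, had 2725 tags per kb after oil and 2832 after tamoxifen. Of 7 immature and myeloid markers 5 had such a peak, and Mpo and Csf1r had none (0). For T cells 1 of 5, for B cells 1 of 4, and for mature myeloid cells 1 of 4 had one. All 5 erythroid markers had one (for example Klf1, 1599 and 1387 tags per kb), which the label of the cells does not name. Summed over its list, the immature and myeloid level was 5157 to 5438 tags per kb in the oil libraries and 5680.3 to 6774 after tamoxifen, the erythroid level 7342 to 7928 and 7157 to 7316, and the mature myeloid level 114 to 120 and 107 to 230.5. Cd34, a surface protein of immature blood cells, accounted for most of the first difference (351 and 1002 tags per kb, adjusted p = 7.3e-12 in DESeq2 with Benjamini-Hochberg adjustment). The part of these shifts in the Hox values below was not tested. In bulk cells, fewer cells of a type and less accessibility per cell cannot be told apart.

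The DNA under the peaks that carry the results is shown first, because these are the places the values below refer to. They are the tallest Hox-assigned peak of each cluster (in tags per kb) and the Hoxc peak across the upstream Hoxc6 start. The latter had lower values after tamoxifen. Sequences are from the plus strand of GRCm38.p6 (the mm10 chromosomes, RefSeq) and leave out exons of protein-coding genes. Capitals mark matches to TGTGGT (Runx) or CCANNAGGG (CTCF core) on either strand, and a match is a description of the letters, not a bound site. A match to TGATTNAT (Pbx-Hox) in the same Hoxc peak lies in its exon portion and is not shown.
Hoxa7 upstream, chr6:52221855-52221955: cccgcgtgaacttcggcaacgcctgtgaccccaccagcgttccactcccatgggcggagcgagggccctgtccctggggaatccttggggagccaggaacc
Hoxb5 start, chr11:96303176-96303335: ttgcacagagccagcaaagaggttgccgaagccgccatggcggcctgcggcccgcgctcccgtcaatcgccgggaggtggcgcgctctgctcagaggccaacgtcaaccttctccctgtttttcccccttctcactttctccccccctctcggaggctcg
Hoxc6 upstream start, chr15:102998067-102998225: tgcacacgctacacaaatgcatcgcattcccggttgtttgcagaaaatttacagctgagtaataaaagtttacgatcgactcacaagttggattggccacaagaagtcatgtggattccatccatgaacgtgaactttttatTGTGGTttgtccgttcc
Hoxc6 upstream intron, chr15:102999233-102999449: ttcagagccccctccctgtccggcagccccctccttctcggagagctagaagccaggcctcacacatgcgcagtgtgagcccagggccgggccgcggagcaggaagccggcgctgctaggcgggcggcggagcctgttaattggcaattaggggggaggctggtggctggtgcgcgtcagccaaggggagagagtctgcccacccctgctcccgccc
Hoxd12 upstream, chr2:74673045-74673308: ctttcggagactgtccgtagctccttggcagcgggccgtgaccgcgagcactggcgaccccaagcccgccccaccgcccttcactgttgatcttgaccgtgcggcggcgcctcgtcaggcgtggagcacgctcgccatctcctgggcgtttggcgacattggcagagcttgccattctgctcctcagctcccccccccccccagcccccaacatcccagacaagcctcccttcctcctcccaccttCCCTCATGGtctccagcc

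Accessibility was concentrated in Hoxc. The span from Hoxc13 to Hoxc4 (chr15:102921131-103036856, 115.73 kb) held 127 peaks of any gene, or 11.0 per 10 kb, and peaks covered 33.5% of it. The Hoxa span (chr6:52155367-52260880) held 2.56 peaks per 10 kb with 7.48% covered, the Hoxb span (chr11:96194316-96368254) 2.87 with 8.77%, and the Hoxd span (chr2:74668225-74765142) 3.199 with 8.90%. Normalized tags (tags divided by the library's size factor) per kb of span, summed over its peaks, were 95.4 after oil and 89.4 after tamoxifen for Hoxc. The corresponding values were 11.2 and 13.8 for Hoxa, 14.5 and 16.3 for Hoxb, and 15.3 and 16.7 for Hoxd. With 56.2% of the Hox peaks, Hoxc thus held 71.4% of the Hox tags after oil and 67.0% after tamoxifen.

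The number of peaks was high in Hoxc, but most Hox peaks were low. The median Hox peak had 135 tags per kb of peak, against 173 for all peaks. The gap was widest near start sites, where the median was 131 for Hox and 294 for all peaks, while distal medians were 139 and 152. Ranked among all peaks of the same class (promoter-proximal or distal), the median Hox peak stood at percentile 30.8, with 23.6 for Hoxa, 24.8 for Hoxb, 39.3 for Hoxc and 22.6 for Hoxd. Above the 75th percentile were 17 Hox peaks, 14 of them in Hoxc, 2 in Hoxb, 1 in Hoxa and 0 in Hoxd. Above the 90th were 7, all distal by their assigned TSS, 6 of them in Hoxc and 1 in Hoxa. In Hoxc the level changed along the cluster. The 80 peaks of Hoxc4 to Hoxc10 had a median percentile of 50.3, whereas the 37 of Hoxc11 to Hoxc13, the posterior end, had 24.9 and none (0) above the 75th. This division was chosen after the values were seen and was not tested.

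**Figure D1:**
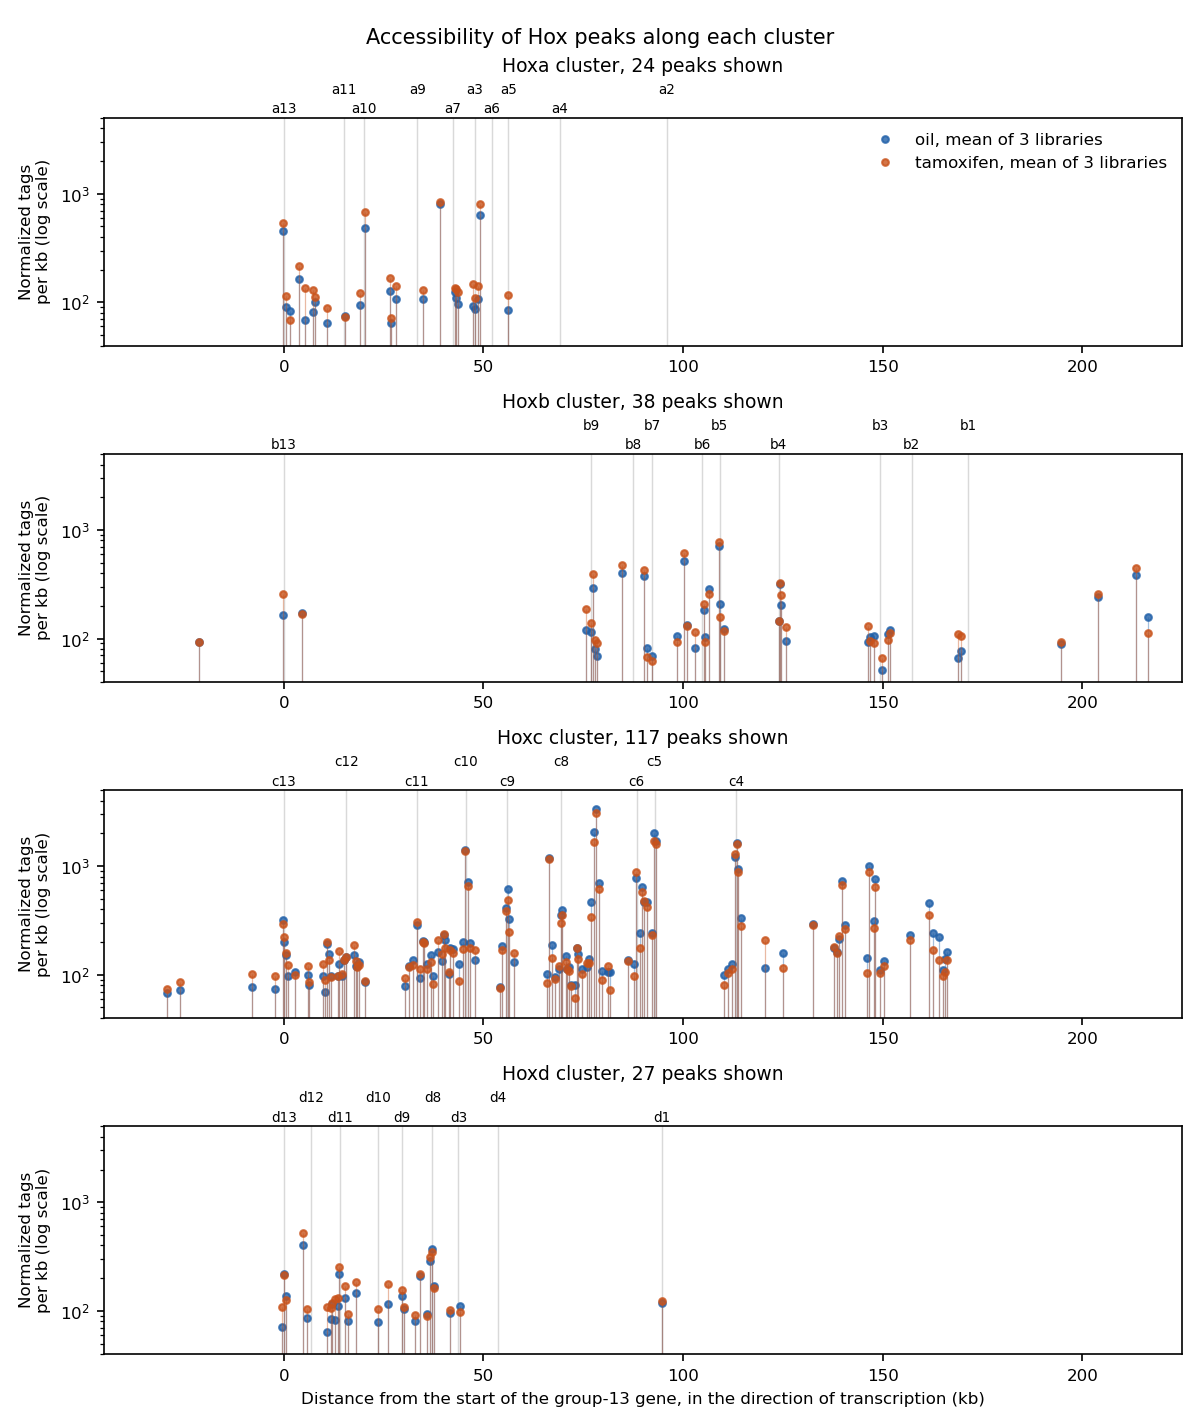
Normalized tags per kb of Hox peaks (log axis, mean of 3 libraries per group) against the distance from the start of the group 13 gene in kb, in the direction of transcription, with 1 panel per cluster and gene starts as grey lines. Hoxc shows dense peaks over its whole length, with 6 peaks above the 90th percentile of distal peaks toward its anterior end. Peaks assigned to Hoxa, Hoxb and Hoxd genes are sparse and most are low.

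The tallest Hox peaks lay between Hoxc8 and Hoxc6. The peak at chr15:102999233-102999449, whose sequence is given above as the upstream intron of Hoxc6, had 3224 tags per kb (percentile 99.9 of distal peaks). Its neighbor at chr15:102998655-102998876 had 1855 tags per kb (percentile 99.2). The files name both as intergenic and nearest to Hoxc8 (8802 and 8226 bp from its TSS), as they do the third peak of the group at chr15:102998067-102998357 (7673 bp). The annotation of the same build places an alternative exon 1 of Hoxc6 here, at 102998226-102998771 in a RefSeq model and 102998257-102998771 in GENCODE vM21, upstream of the curated Hoxc6 start at 103009562. The peak at 102998067 spans the start of that exon, the peak at 102998655 its end, and the tallest peak lies in the intron behind it. Measured from this exon they would count as promoter-proximal, so their percentiles hold only for the assigned TSS. For comparison, the promoter-proximal peak at the Hoxc5 start, with 1851.5 tags per kb, stood at percentile 84.7 of its class. RefSeq also has an exon of the noncoding gene Gm29905 under the first of them. Further peaks above the 90th percentile were at -9463 bp from the Hoxc6 TSS (658 tags per kb) and, past the anterior end of the cluster, at 26540, 33454 and 34890 bp from the Hoxc4 TSS (701, 941 and 698 tags per kb). The first of these, which starts at 102999986, also lies within 3000 bp of the upstream exon start. Other models of Hoxc6 have a first exon at 103000529 or 103000732. Its percentile too holds only for the assigned TSS. In Hoxa the only such peak stood between Hoxa7 and Hoxa9, at -3282 bp from the Hoxa7 TSS, with 822 tags per kb (percentile 93.5). The tallest Hox-assigned peaks of Hoxb, at -233 bp from the Hoxb5 TSS, and of Hoxd, at -1837 bp from the Hoxd12 TSS, had 744 and 466 tags per kb. Taller peaks in these spans were assigned to the noncoding RNAs Hoxb5os (1008 tags per kb) and Hoxd3os1 (1512), which are not in the Hox set.

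At start sites, 4 Hoxc genes led. For each of the 34 genes the peak nearest its TSS was taken, which lay within 1000 bp for 31 of them. Hoxc5 came first with 1998 tags per kb after oil and 1705 after tamoxifen, followed by Hoxc10 (1395 and 1374), Hoxc4 (1199.7 and 1282) and Hoxc6 (773 and 876). Over all 6 libraries the ranges of Hoxc5, Hoxc10, Hoxc4 and Hoxc6 were apart from each other. From Hoxc6 down, each gene's range overlapped that of the next in the order, so that those 30 steps were within the spread between libraries. These levels rank low among promoter-proximal peaks in general: 3 genes stood above the 75th percentile, none (0) above the 90th, 23 below the 50th and 12 below the 25th.

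Of the genes with a known role in blood stem cells and leukemia, 3 are given here, chosen after their values were seen. Hoxa10 came next after Hoxc6 in the order, with 516, 501, 443 tags per kb in the oil libraries and 766, 774, 499 in the tamoxifen libraries (values are listed in the order of the library numbers throughout). Hoxa9 had 85.3, 123, 111 and 160, 119, 109.5 tags per kb at 1303 bp from its TSS (percentile 21.5), and Hoxb4 151.1, 151.4, 135 and 172, 107, 153 (percentile 30.2). A second Hoxb4 peak, 394 bp past the TSS, was higher than the nearest one (percentile 51.9), with 317 tags per kb after oil and 326 after tamoxifen. Genes that pattern the embryo were spread over the order. Hoxa13 and Hoxd13, which shape the digits, had 456 and 218 tags per kb after oil. Hoxb1, which patterns the hindbrain, had 77.0 at its nearest peak, -1886 bp from its TSS. At the bottom were Hoxa11 (74.5), Hoxb7 (68.6) and Hoxb3 (50.9). After tamoxifen these nearest peaks had a log2 fold change above 0 in 22 of 34 genes, from -0.41 for Hoxb5 to 0.64 for Hoxb13, and the smallest adjusted p among them was 0.231, for Hoxa10 (DESeq2).

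**Figure D2:**
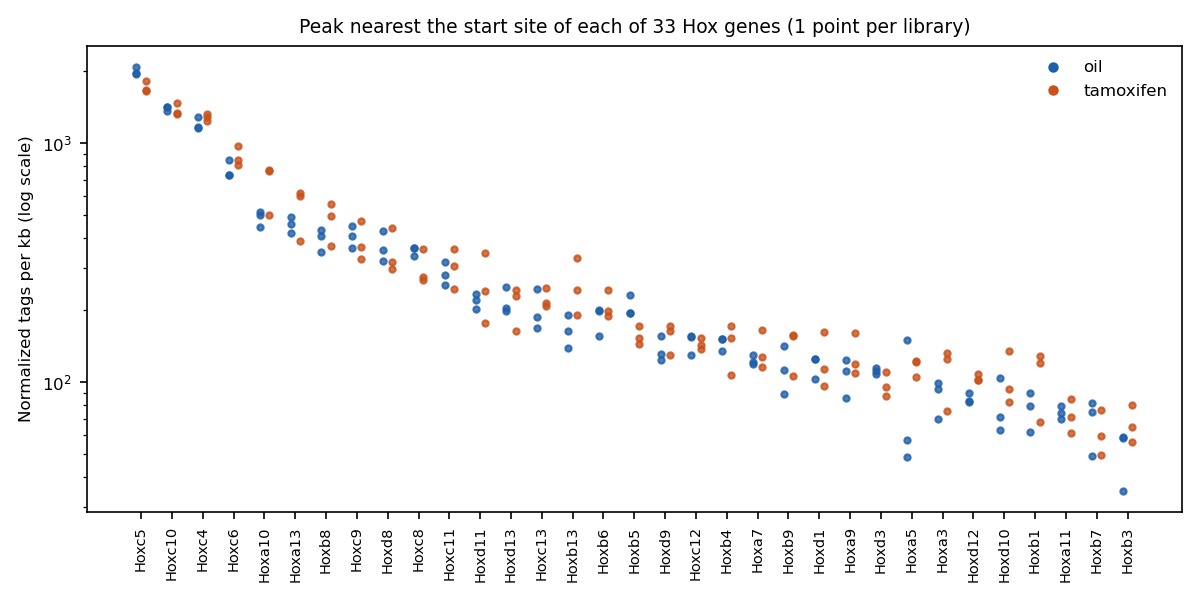
Normalized tags per kb (log axis) of the peak nearest the TSS of each of 33 Hox genes, ordered by mean level, with 1 point per library colored by group. Hoxc5, Hoxc10, Hoxc4 and Hoxc6 stand at the top and Hoxb3 at the bottom, and from Hoxc6 down the points of neighboring genes overlap.

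To ask whether Hox chromatin differed after loss of 1 Usp18 allele, tags were fitted over all 175929 peaks with DESeq2, with Benjamini-Hochberg adjustment over all of them. None (0) of the 208 Hox peaks passed a fold change over 2 with an adjusted p under 0.05, against 0.641% of all peaks, and 0 passed the adjusted p alone, against 1.38%. The smallest adjusted p was 0.175. At an unadjusted p under 0.05 there were 8 Hox peaks with higher values after tamoxifen (3.85%, against 6.16% of all peaks) and 4 with lower (1.92%, against 2.82%). The 3 tamoxifen values all lay above the 3 oil values in 18 Hox peaks (8.65%, against 11.9% of all peaks) and below them in 19 (9.13%, against 10.0%). With all 6 libraries, each of these shares was under that of all peaks. Without tamoxifen library 4 the 8 became 18 of 208 (8.65%, against 7.79% of all peaks) and the 4 became 9 of 208 (against 5.88%). The share was then above that of all peaks for higher values and under it for lower ones. The fold changes had a median of 0.002 on the log2 scale, against -0.001 for all peaks, and 50.5% of Hox peaks and 49.7% of all peaks lay above 0. For 156 of the 208 Hox peaks, against 76.2% of all peaks, the 95% interval of the fold change lay within 2-fold in either direction. For the remaining peaks the interval reached beyond 2-fold.

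The clusters did not shift alike. The median log2 fold change was 0.34 for Hoxa (23 of 25 peaks above 0), 0.13 for Hoxb (23 of 39), 0.17 for Hoxd (21 of 27) and -0.08 for Hoxc (38 of 117). No cluster was tested as a whole. Neighboring peaks share a region and are not independent of each other, and Hoxa, Hoxb and Hoxd peaks were low, with medians of 29.6, 34.3 and 36.2 normalized tags after oil against 48.8 in Hoxc. Their median content of G and C was 59.9%, 58.4% and 58.8%, against 51.8% in Hoxc. With size factors that depend on GC content the median fold changes were 0.34, 0.13, 0.16 and, for Hoxc, -0.08. Summed over its peaks, Hoxa had 1215, 1313 and 1194 normalized tags in the oil libraries and 1712, 1503 and 1345 in the tamoxifen libraries, or 1241 ± 63.4 and 1520.1 ± 184 (SD, n = 3). Hoxc had 10308, 10686, 10418 and 9904, 9583, 9928, or 10471 ± 195 and 9805 ± 193. In these 2 clusters the groups did not overlap, with Hoxa higher and Hoxc lower after tamoxifen. They overlapped in Hoxb (1834 ± 93.0 and 2049.7 ± 185) and Hoxd (1126 ± 91.3 and 1264 ± 215). The sum over all Hox peaks was 14671 ± 433 after oil and 14639 ± 579.6 after tamoxifen.

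**Figure D3:**
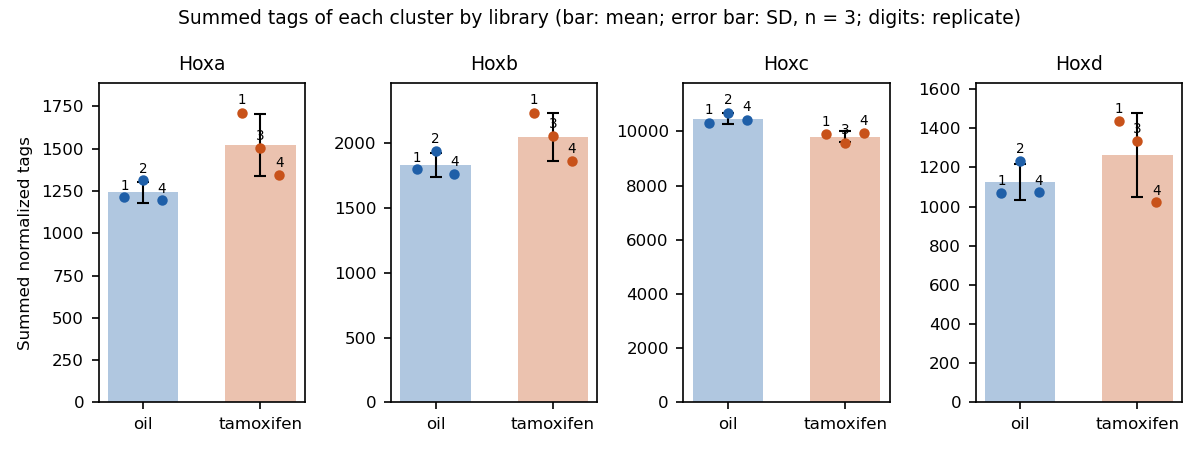
Summed normalized tags over the peaks of each cluster, with 1 point per library, bars for the mean of 3 libraries and error bars for the SD, on axes that start at 0. Hoxa sums run from 1194 to 1313 after oil and from 1345 to 1712 after tamoxifen, and Hoxc sums from 10308 to 10686 and from 9583 to 9928, whereas the groups overlap in Hoxb and Hoxd.

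The size of the shift in Hoxa, Hoxb and Hoxd differed between the tamoxifen libraries, with library 4 nearest the oil libraries. Relative to the oil mean, the median Hoxa peak was at 0.58 (log2) in tamoxifen library 1, 0.30 in library 3 and 0.04 in library 4. For Hoxd the values were 0.36, 0.32 and -0.10, and for Hoxb 0.26, 0.12 and -0.06. Without tamoxifen library 1 the median fold change was 0.18 in Hoxa, 0.06 in Hoxb and 0.02 in Hoxd. Without library 3 it was 0.37, 0.16 and 0.15, and without library 4 it was 0.42, 0.22 and 0.29. In Hoxc as a whole the 3 libraries were close together, at -0.06, -0.10 and -0.07, but its parts differed. The peaks of Hoxc4 to Hoxc10 were at -0.147, -0.197 and -0.068, with library 4 again nearest the oil libraries. Those of Hoxc11 to Hoxc13 were at 0.225, 0.03 and -0.061.

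Peaks also differed in the list they came from. The authors had called peaks in each group before merging the lists, so a peak can come from the oil list, the tamoxifen list or both. Peaks from the tamoxifen list alone made up 32.0% of Hoxa (8 of 25), 29.6% of Hoxd (8 of 27), 17.9% of Hoxb (7 of 39) and 10.3% of Hoxc (12 of 117), against 11.2% of all peaks. Peaks from the oil list alone were 3 of 25 in Hoxa, and made up 10.3% of Hoxb (4 of 39), 17.1% of Hoxc (20 of 117) and 17.4% of all peaks, while Hoxd had none (0). The Hoxc shares were thus near those of all peaks. Which filter decided that a peak came from 1 list alone is not given in the sources used here. The lists and the tags come from the same libraries and are not separate evidence. A peak from 1 list alone entered the set only through that group, so its direction is partly set by how peaks were chosen. The counts of peaks above 0 and of peaks without overlap include such peaks.

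Within Hoxa, the peak in intron 1 of Hoxa3 (chr6:52211601-52211888), a gene needed for thymus and pharyngeal development, had 182, 199.97 and 173 normalized tags after oil and 261, 218 and 216 after tamoxifen. All tamoxifen values lay above the oil values, with a log2 fold change of 0.33 ± 0.14 (SE) that did not pass the test (adjusted p = 0.387, DESeq2). The peak in the 5′ UTR of Hoxa10 (chr6:52240415-52240679) had 137, 133, 117 and 203, 205, 132, and tamoxifen library 4 fell within the oil range. Its fold change was 0.48 ± 0.18 (adjusted p = 0.231). Without library 4 it was 0.67 ± 0.17 with an adjusted p of 0.0047 in DESeq2. The tallest Hoxa peak, upstream of Hoxa7, had 168, 163, 155 and 161, 177, 167, which overlapped (0.06 ± 0.15, adjusted p = 0.986), so the higher sum of the cluster was not carried by its tallest peak.

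In Hoxb, 2 peaks at Hoxb9 were higher in every tamoxifen library. The one at -1215 bp (chr11:96269991-96270240), which holds a Runx match, had 23.2, 37.1, 29.6 and 59.0, 44.6, 38.2 normalized tags (0.65 ± 0.32, adjusted p = 0.516, DESeq2), and the one in exon 1 (chr11:96271770-96272029) 77.2, 81.0, 70.8 and 132, 93.6, 82.0 (0.43, adjusted p = 0.567). The first came from the tamoxifen list alone. The separation was narrow in the second, where tamoxifen library 4 at 82.0 stood just above oil library 2 at 81.0. The start of Hoxb13, which is active in the posterior embryo and the prostate, had 43.0, 31.2, 36.8 and 74.4, 54.6, 42.9, with tamoxifen library 4 inside the oil range. The tallest Hoxb peak, in front of Hoxb5, had 140.05, 159.97, 140.75 and 152, 160.4, 170.5 and overlapped (0.13, adjusted p = 0.937). At Hoxb5 itself the order was turned, since the peak 140 bp past its TSS had 207 tags per kb after oil and 156 after tamoxifen, with all tamoxifen values lower (-0.41, adjusted p = 0.799).

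In Hoxc, lower values clustered around Hoxc8, Hoxc6 and Hoxc5. Of the 19 Hox peaks with all tamoxifen values below the oil values, 18 were in Hoxc (15.4% of its peaks, against 10.0% of all peaks), all of them from Hoxc4 to Hoxc10 (18 of 80) and none (0) from Hoxc11 to Hoxc13, where 5 of 37 had all values higher (13.5%, against 11.9% of all peaks). This division was also chosen after the values were seen. By nearest gene, 6 of the 18 belonged to Hoxc8, 5 to Hoxc6, 4 to Hoxc4, 2 to Hoxc5 and 1 to Hoxc10. Median fold changes were -0.14 (15 of 80 above 0) and 0.07 (23 of 37). At the upstream start of Hoxc6, the peak at 102998067 had 130.1, 144, 135 normalized tags after oil and 79.3, 109, 108 after tamoxifen (-0.47 ± 0.19, adjusted p = 0.281, DESeq2). Its neighbor at 102998655 had 469, 484, 414 and 389.6, 338, 376 (-0.31 ± 0.11, adjusted p = 0.175), the smallest p of all Hox peaks. The tallest peak, at 102999233, had 784, 732, 679.5 and 676, 678, 648 (-0.13 ± 0.09, adjusted p = 0.754). All 3 peaks of this group were thus lower in every tamoxifen library, narrowly so in the tallest. The start of Hoxc5 (chr15:103013705-103013930), the highest among the peaks nearest each assigned TSS, had 471, 444, 440.2 and 371, 375, 409 (-0.23 ± 0.10, adjusted p = 0.423).

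Further Hoxc peaks were named for the smallest p among those lower in every tamoxifen library. The peak at -6585 bp from the Hoxc6 TSS had 35.3, 34.1, 36.8 and 17.4, 29.0, 25.2 normalized tags, and the one in intron 1 (chr15:103010307-103010529) 52.9, 53.6, 56.5 and 33.8, 33.4, 49.4. In intron 1 of Hoxc4 (chr15:103035263-103035873) the values were 205, 213, 195 and 190.5, 174, 155. Adjusted p-values of these 3 peaks ran from 0.683 to 0.702 in DESeq2. Both Hoxc6 peaks came from the oil list alone, so their direction is partly set by how peaks were chosen. Of the 7 Hoxc peaks with all tamoxifen values higher, 5 belonged to Hoxc11 to Hoxc13, 1 to Hoxc10 and 1 to Hoxc4. The Hoxc4 one was a distal peak 7384 bp past the Hoxc4 TSS (chr15:103041653-103041905), with 23.2, 26.3, 37.7 and 45.4, 68.0, 43.8 (0.83 ± 0.32, adjusted p = 0.247), the only Hoxc peak at an unadjusted p under 0.05 that was higher. This peak came from the tamoxifen list alone. The 21 distal peaks past Hoxc4, this one included, had a median fold change of -0.18, and 3 of 21 lay above 0. Among them the peak at 33454 bp had 283, 283, 262 and 208, 194, 329, so that tamoxifen library 4 was the highest of all 6 and the other 2 tamoxifen libraries the lowest. The peak at 50750 bp had 44.1, 53.6, 51.1 and 26.1, 18.9, 47.5, again with library 4 apart.

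**Figure D4:**
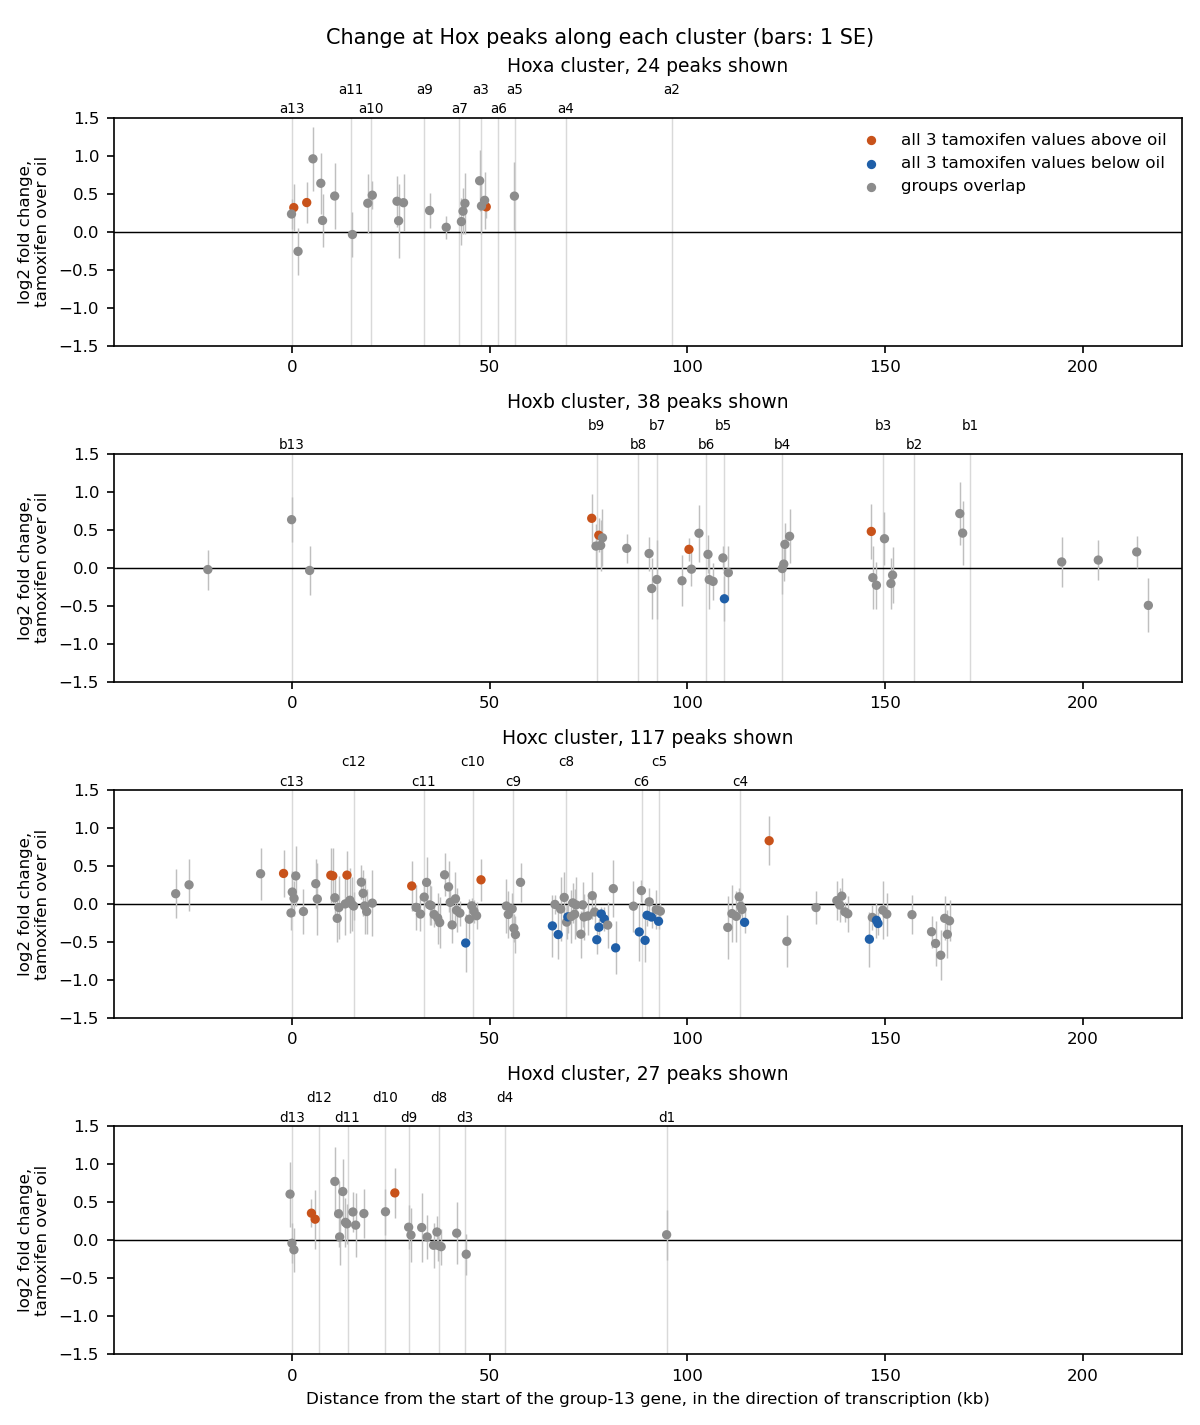
Log2 fold change after tamoxifen against oil with 1 SE for Hox peaks, against the distance from the start of the group 13 gene in kb, colored by whether the 3 tamoxifen values lie above, below or among the 3 oil values. Hoxa has 3 of 25 peaks with all values higher (against 11.9% of all peaks) and 0 lower, and Hoxc has 7 higher (5.98%) and 18 lower (15.4%, against 10.0% of all peaks), the lower ones from Hoxc10 to Hoxc4 and beyond.

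In Hoxd, the tallest Hox-assigned peak was the one with the smallest p. It lies between Hoxd13 and Hoxd12, genes that pattern the limb and the genital tract, and its sequence above ends in a CTCF core match that lies outside the 200 bp around the peak center. It had 95.9, 112, 115 normalized tags after oil and 154, 143, 118 after tamoxifen, all higher, with 0.36 ± 0.18 (adjusted p = 0.553, DESeq2). Tamoxifen library 4 stood just above the nearest oil library. At the Hoxd12 start the values were 83.4, 90.2, 82.9 and 102, 107.7, 101.8 tags per kb, also without overlap (adjusted p = 0.955). That start-site peak came from the tamoxifen list alone. The start sites of Hoxd13, Hoxd8 and Hoxd3 had fold changes of -0.04, -0.07 and -0.18, and their groups overlapped.

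**Figure D5:**
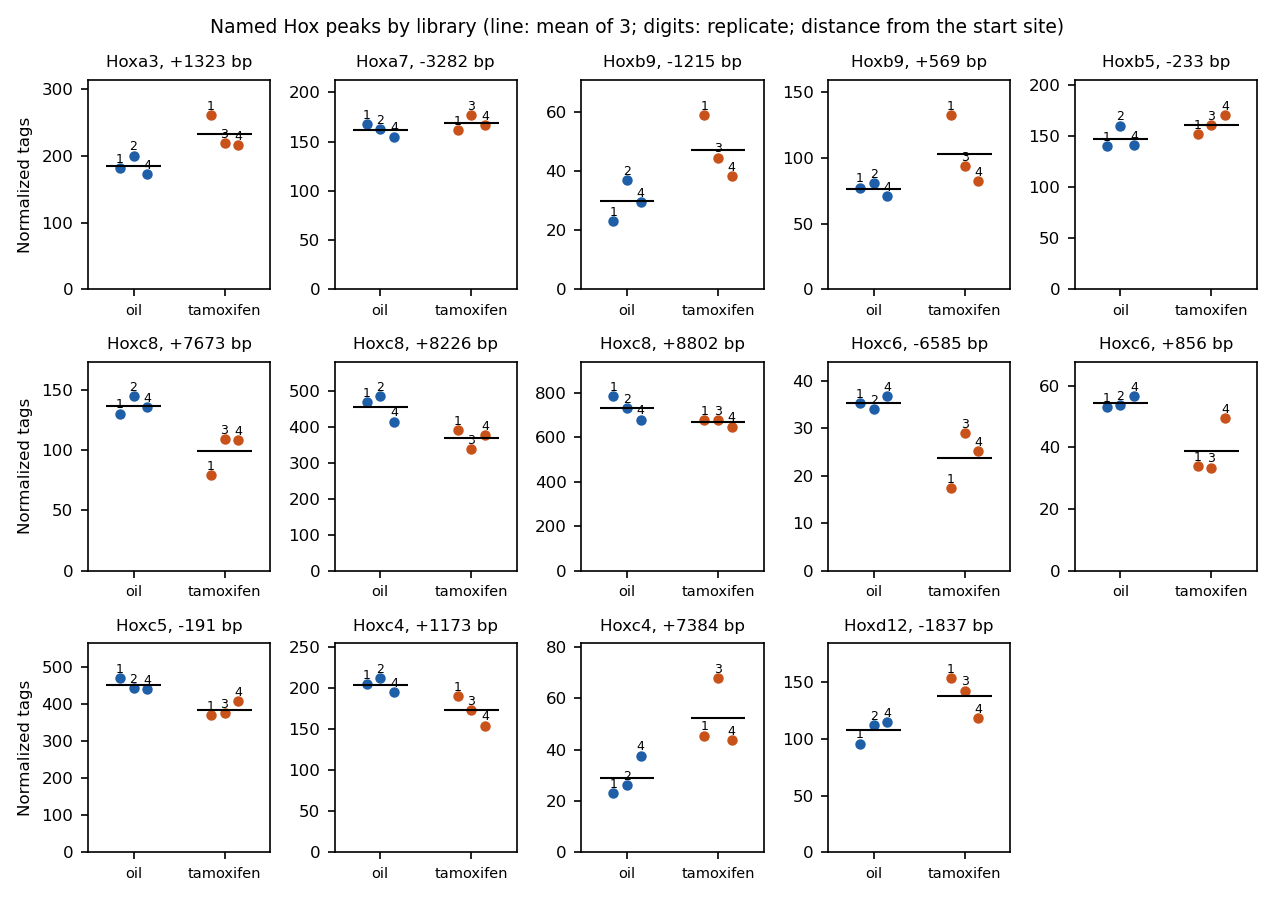
Normalized tags per library (axes from 0) at 14 Hox peaks, the tallest of each cluster and those with the smallest p in each direction among peaks whose groups do not overlap, with a line at each group mean. The 3 peaks at the upstream Hoxc6 start are lower in every tamoxifen library, whereas the tallest Hoxa and Hoxb peaks overlap between groups.

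Calls among Hox peaks depended on 1 library and on the test. Without tamoxifen library 4, 1 Hox peak passed the fold change and adjusted p (Hoxc4 at 50750 bp, -1.13 ± 0.36, adjusted p = 0.0472, DESeq2), against 1.52% of all peaks, and 3 passed the adjusted p alone, against 3.70%: this peak, Hoxa10 (above) and Hoxc4 at 33454 bp (-0.45 ± 0.14, adjusted p = 0.0361). With edgeR's quasi-likelihood test on all 6 libraries, 1 Hox peak passed the adjusted p, the one at 102998655 (adjusted p = 0.0371), against 2.91% of all peaks.

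Other genes lie inside the clusters, and their peaks were counted separately. Hotair, a long noncoding RNA transcribed from the opposite strand between Hoxc12 and Hoxc11, had 12 peaks in the Hoxc span, with heights from percentile 6.90 to 57.3 of their class. Its peak at -2172 bp, from the oil list alone, had 46.3, 61.5, 46.6 and 36.7, 26.7, 38.2 normalized tags, lower in all tamoxifen libraries (-0.60, adjusted p = 0.536, DESeq2). Evx2, a homeobox gene next to Hoxd13, had 7 peaks. The one with the smallest p, at 1619 bp from its TSS, had 33.1, 35.1, 30.5 and 72.5, 65.7, 47.5, higher in all tamoxifen libraries (0.91 ± 0.29, adjusted p = 0.0861, DESeq2). Its peak at -2463 bp also had all tamoxifen values higher (0.53), and those at 3990 and 3042 bp had all lower (-0.315 and -0.285). The peak at 3042 bp came from the oil list alone. The tallest peaks assigned to genes within the spans of Hoxd and Hoxb were those of noncoding RNAs. Hoxd3os1 had 1512 tags per kb at 148 bp from its TSS (0.01, adjusted p = 0.998), and Hoxb5os 1008 at -4795 bp (0.18, adjusted p = 0.816), and in both the groups overlapped.

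The clusters also contain microRNA genes, whose mature sequences are shown because they form 2 families that span clusters and share a seed (bases 2 to 8, in capitals). miR-196 is known to cut or repress Hox transcripts, and the miR-10 genes lie beside Hoxb4 and Hoxd4.
miR-196a-5p, from Mir196a-1 (Hoxb, chr11:96265187-96265208) and Mir196a-2 (Hoxc, chr15:102973365-102973386): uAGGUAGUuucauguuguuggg
miR-196b-5p, from Mir196b (Hoxa, chr6:52230129-52230150): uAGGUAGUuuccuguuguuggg
miR-10a-5p, from Mir10a (Hoxb, chr11:96317186-96317208): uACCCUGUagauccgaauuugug
miR-10b-5p, from Mir10b (Hoxd, chr2:74726074-74726096): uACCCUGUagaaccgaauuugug
Mir196a-1 had 2 peaks, both with all tamoxifen values higher, at -3404 bp (56.2, 63.4, 63.7 and 90.9, 86.9, 68.0 normalized tags, 0.42, adjusted p = 0.625, DESeq2) and at 711 bp (26.5, 26.3, 25.1 and 42.5, 41.2, 30.7, 0.55, adjusted p = 0.698). Mir196a-2, with the same mature sequence, had 6 peaks with fold changes from -0.35 to 0.065, 5 of them below 0. Of the Mir196a-2 fold changes, 0.065, -0.067, -0.042 and -0.012 lay near 0, and those at -1211 and 695 bp were -0.35 and -0.33. Only at -1211 bp, a peak from the oil list alone, did the groups not overlap. A direction of this copy is therefore not shown. Neither copy passed the test, and the difference between them was not tested. Mir10a had a peak at -2025 bp with 66.2, 72.2, 75.3 and 90.9, 94.7, 76.4 (0.29, adjusted p = 0.815), and no peak was assigned to Mir10b. Mir615, in an intron of Hoxc5, had 10 peaks in the Hoxc span, led by those at -70 bp (982 tags per kb, 0.08) and 6313 bp (964 tags per kb, -0.24).

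Genes that act with or on Hox genes were taken from lists, whose counts stand against 1.38% of all peaks at the adjusted p and 6.16% higher and 2.82% lower at the unadjusted p. Among 77 peaks of 9 TALE cofactors, the Meis, Pbx and Pknox proteins that bind DNA together with Hox proteins, 2 passed the adjusted p, both higher, and the median fold change was -0.08. At the unadjusted p 9 were higher (11.7%) and 1 lower (1.30%). By overlap the lower side was the larger: all tamoxifen values lay below the oil values in 16 (20.8%, against 10.0% of all peaks). They lay above them in 13 (16.9%, against 11.9%), and 41.6% of the fold changes were above 0. Both peaks that passed the adjusted p were in introns of Meis1. The called one (chr11:18923421-18923692, intron 8 of 11) had 33.1, 31.2, 40.3 and 74.4, 80.2, 57.8 normalized tags, with 1.01 ± 0.27 and an adjusted p of 0.0219 in DESeq2, and no library of one group overlapped the other. When 1 library was left out its adjusted p ranged from 0.00539 (without tamoxifen library 4) to 0.39 (without tamoxifen library 3). Among 187 peaks of 14 Polycomb genes 3 passed, all higher, and at the unadjusted p 13 were higher (6.95%) and 2 lower (1.07%). All tamoxifen values lay above the oil values in 13 (6.95%) and below them in 20 (10.7%). The called one lay at the start of a transcript of Phc2, a subunit of Polycomb repressive complex 1 (chr4:128688624-128688928). It had 26.5, 27.3, 32.3 and 74.4, 90.2, 47.5 (1.29 ± 0.30, adjusted p = 0.0037, DESeq2). With 1 library left out its adjusted p ran from 8.97e-05 (without tamoxifen library 4) to 0.251 (without tamoxifen library 3). Of 171 peaks of 12 MLL and DOT1L complex genes, which hold Hox genes active, 0 passed the adjusted p (16 at an unadjusted p under 0.05, 10 higher or 5.85% and 6 lower or 3.51%), and of 10 peaks of Cdx1, Cdx2 and Cdx4, upstream activators of Hox genes, of which 2 had a peak, 0 passed (1 higher at the unadjusted p). Of 117 peaks of genes nested in or flanking the clusters, 1 passed, higher, and at the unadjusted p 2 were higher (1.71%) and 4 lower (3.42%). Their medians were -0.01 for Polycomb and for MLL and DOT1L, 0.12 for Cdx and -0.04 for the nested and flanking genes, against -0.001 for all peaks.

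Short motifs were counted in the central 200 bp of each peak on either strand. TGTGGT (the letters bound by Runx proteins, the family of AML1) was in 8.17% of Hox peaks (17 of 208) and 18.7% of all peaks. By class it was in 9.85% of promoter-proximal and 5.26% of distal Hox peaks, against 13.5% and 20.95% of all peaks of the same class. TGACAG (Meis) was in 11.1% and 15.6%, with 17.1% of distal and 7.58% of promoter-proximal Hox peaks, against 16.5% and 13.5% of all peaks of the same class. TGATTNAT (Pbx-Hox) was in 2.88% and 1.85%. The CTCF core CCANNAGGG was in 2.88% and 6.94%, or 2.27% and 5.60% of promoter-proximal and 3.95% and 7.53% of distal peaks. These shares describe the sequence.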

How the data were processed

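ATAC-seq libraries of sorted AE9a cells (3 after oil, 3 after tamoxifen) were analysed from 1 table. Per its header and the study's methods, the authors aligned reads with Bowtie2 (mm10), ran HOMER peak calling on each group, joined the lists, annotated each peak to the nearest TSS, and counted tags per peak with at most 3 tags per position. The header also names a folder of IDR peak lists, a step the methods do not describe, so the filter behind each list is not given in the sources used here. The deposited values are estimated counts in steps of 0.5 tags, with no normalization. They were rounded to whole numbers here. As peaks were called from the compared libraries, a peak called in neither group is not in the table.

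The fit was DESeq2 1.42.0 (R 4.3.3) over all 175929 peaks with default settings (Wald test, tamoxifen over oil, p-values adjusted by Benjamini-Hochberg), and a call at a fold change over 2 with an adjusted p under 0.05. It was tested on simulated data. The study's own limit to distal peaks was an alternative, since most Hox peaks were promoter-proximal. Other alternatives were size factors (TMM, tags in peaks, mapped tags, GC-dependent), a filter at a mean of 10 tags (which removed 0 peaks), edgeR 4.0.16, a limit of 10000 bp, an adjusted p of 0.1, each library left out, and a block of replicate numbers. Exact permutation of 3 against 3 cannot go below p = 0.1, so cluster sums were not tested. Named peaks are the tallest per cluster, the 6 per direction with the smallest p among peaks whose groups did not overlap, and the peak nearest each TSS. Genes of other lists were named where a peak was called, and further peaks in the text were chosen after their values were seen. The Hox set, lists and rules were chosen with earlier results of these data known. Sequences were read from GRCm38.p6. Values of 1 Hox gene, 1 Hox peak and 1 marker are not reported here beyond their part in counts and sums.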

Additional observations from a re-analysis of the deposited data

How the results depend on the processing

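The directions of the 4 cluster medians held under every alternative that was run. The median log2 fold change ran from 0.179 to 0.417 in Hoxa, 0.063 to 0.224 in Hoxb, 0.020 to 0.291 in Hoxd and -0.119 to -0.052 in Hoxc with 1 library left out, and the log2 ratio of summed tags from 0.199 to 0.375, 0.096 to 0.226, 0.067 to 0.30 and -0.106 to -0.079. Under other size factors, GC-dependent ones included, no count of Hox peaks moved by over 1.5 times. Main counts were 0 calls, 0 at the adjusted p, and 8 higher and 4 lower at the unadjusted p. With 1 library left out these ran from 0 to 1, 0 to 3, 2 to 18 and 0 to 9, with the highest values without tamoxifen library 4, where all peaks gave 7.79% higher and 5.88% lower. With edgeR they were 0, 1, 16 and 15 of 208 peaks. All peaks also gave more there, with 2.91% at the adjusted p, and 10.6% higher and 7.11% lower at the unadjusted p. With distal and proximal peaks fitted separately 13 were higher (6.30% of all peaks). With Hox peaks taken by location in the span in place of nearest gene, 5 of 235 were higher, against 6.16% of all peaks. This alternative was added after seeing the data. Of 210 alternative values for 15 Hox peaks, named for height or for the smallest p, 209 kept their direction and side of the threshold. The exception was the Hoxc8 peak at 102998655 under edgeR (adjusted p = 0.0371). Most of these peaks were chosen because their groups did not overlap, so leaving out a library could hardly turn their direction. None passed in the main fit (smallest adjusted p = 0.175, DESeq2). The count of 209 therefore does not measure how stable these peaks were. Of 462 such values for the other 33 start-site peaks, 1 passed (Hoxa10 without tamoxifen library 4, adjusted p = 0.0047, DESeq2), and 31, of 13 peaks, changed direction, all of peaks with a main log2 fold change within 0.271 of 0. The groups share only replicate numbers 1 and 4, and deviations of libraries with the same number had correlations of -0.0434 and 0.0511. The oil libraries differed by little more than counting error, so these correlations cannot show whether the numbers pair the samples. A replicate block on those 4 libraries gave 0 higher and 0 lower peaks at the unadjusted p, fewer for all peaks too (0.648% and 0.174%), and a Hoxc sum ratio of -0.067. The called Meis1 and Phc2 peaks did not pass under the block (adjusted p = 1, DESeq2). Depth limited the low peaks most: the median SE of a Hox fold change was 0.305 (log2).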

Other observations

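Hox peaks were also grouped by paralog number in place of cluster, as a description with no test, to be read against 11.9% of all peaks with all tamoxifen values above the oil values and 10.0% with all below. Of the 97 peaks of groups 9 to 13, 13 (13.4%) had all values above and 1 (1.03%) had all below, with a median log2 fold change of 0.15. Of the 58 peaks of groups 5 to 8, 1 (1.72%) was higher in this sense and 14 (24.1%) were lower (median -0.08), and of the 53 peaks of groups 1 to 4, 4 (7.55%) were higher and 4 (7.55%) lower (median -0.07). Hoxc holds most of the lower peaks, so these counts over all clusters mix paralog group with cluster. Within Hoxc alone, 6 of 20 Hoxc8 peaks, 5 of 10 Hoxc6 peaks and 2 of 4 Hoxc5 peaks were lower in this sense. Hoxc4 had 4 of 28, Hoxc9 0 of 6, Hoxc10 1 of 12, and Hoxc11 to Hoxc13 0 of 37. The difference was not tested.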
